A study of Mus musculus with 15 samples.

Results

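The cadherin superfamily genes described here were the mouse protein-coding genes named *Cdh* with a number, or *Pcdh*, in GENCODE. The rule itself uses gene symbols and no measured value. Of 35142 genes in the data, 94 met this rule. They comprised 59 clustered protocadherins (15 alpha, 22 beta and 22 gamma genes) and 35 other genes. The latter were 4 delta-1, 5 delta-2 and 3 other protocadherins, 5 type I and 13 type II classical cadherins, and 5 other cadherins. A filter of at least 1 CPM (a read count scaled to the size of its library) in at least 2 cultures was passed by 78 of the 94 genes, of which 51 were clustered protocadherins and 27 were others. The remaining 16 genes did not pass the filter and were not tested. They were *Pcdha1*, *Pcdha2*, *Pcdha3*, *Pcdha4b*, *Pcdha5*, *Pcdha6*, *Pcdha8*, *Pcdhb1*, *Pcdh12*, *Cdh1*, *Cdh3*, *Cdh9*, *Cdh12*, *Cdh15*, *Cdh16* and *Cdh17*.

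RNA was sequenced from 15 cultures of cerebellar cells, dissociated from wild-type C57BL/6 pups of postnatal days 0 to 4 and kept in vitro for 14 days. Of these, 5 cultures were left unstimulated, 5 received the cytokine IL-12p70 of the mouse, in recombinant form, at 30 ng/ml (low dose) and 5 at 100 ng/ml (high dose), in each case for 18 h. The labels do not say whether replicate cultures came from separate litters or preparations, so p-values measure only the spread between these cultures, which may be technical. Assigned reads per culture ranged from 25746096 to 38435850.

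Cadherins are transmembrane proteins whose extracellular repeats bind calcium and mediate adhesion between cells. Classical cadherins of type I and type II bind the same or a related cadherin on the opposite cell and connect to actin through catenins. Protocadherins do not bind catenins in this way. The clustered protocadherins lie in tandem arrays of variable exons, and each neuron expresses its own combination, which is known for its part in the self-recognition of dendrites, including those of cerebellar Purkinje cells. In the alpha and gamma clusters each variable exon is spliced to constant exons common to the whole cluster, whereas beta genes consist of variable exons without constant exons. Delta protocadherins are encoded by separate genes and have cytoplasmic motifs that recruit other proteins, among them the WAVE complex of actin regulators.

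The labels name the cells as neurons, but the defining markers of glia were far more abundant. In unstimulated cultures the summed level of 12 microglia markers had a median of 8289 TPM (a level per transcript length and library size), whereas 12 markers of the oligodendrocyte lineage reached 8393 TPM and 10 of astrocytes 4290 TPM. The 18 markers of cerebellar neurons summed to a median of 343 TPM, of which the Purkinje cell marker *Pcp2* alone was below 0.5 TPM in every culture. Of genes that Purkinje cells share with other neurons, *Calb1* averaged 17.04 TPM, *Pvalb* 28.9 TPM and *Car8* 1.05 TPM. In such bulk cultures fewer cells of a type and less RNA per cell cannot be told apart.

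A few genes held most of the cadherin RNA (plot of levels by subfamily). In unstimulated cultures *Pcdhgc3*, a C-type gamma protocadherin, was the highest at 226 ± 17.6 TPM (SD, n = 5) and made up 26.04% of the summed TPM of the 94 genes. *Cdh2*, which encodes N-cadherin, the main classical cadherin of neural tissue, followed at 122 ± 9.16 TPM. *Pcdh10*, a delta-2 protocadherin, was at 77.2 ± 5.04 TPM and *Pcdhgc4* at 60.0 ± 17.9 TPM, a difference smaller than the SD of the latter. Together these 4 genes reached 56.0% of the summed TPM. Next came *Pcdh9* (delta-1) at 38.9 ± 8.49 TPM and the type II cadherin *Cdh11* at 36.6 ± 2.52 TPM, which overlapped in their SDs.

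By subfamily, the 22 gamma genes summed to 414 ± 20.1 TPM in unstimulated cultures, the 22 beta genes to 36.1 ± 3.03 TPM and the 15 alpha genes to 10.9 ± 1.99 TPM. The 5 type I cadherins summed to 132 ± 10.4 TPM, nearly all from *Cdh2*, with *Cdh4* (R-cadherin) at 9.40 ± 1.37 TPM. *Cdh1*, which encodes the epithelial E-cadherin, was at 0.230 ± 0.0514 TPM, and *Cdh15*, known as M-cadherin and found in cerebellar granule cells, at 0.176 ± 0.0412 TPM. The 13 type II cadherins summed to 74.4 ± 4.44 TPM, the delta-1 group to 82.1 ± 14.04 TPM and the delta-2 group to 91.4 ± 6.81 TPM. *Cdh13*, a cadherin anchored to the membrane by lipid, stood at 19.5 ± 2.07 TPM among the other cadherins. *Cdh5*, the cadherin of endothelial junctions, was at 2.66 ± 0.71 TPM, beside 7 endothelial markers that summed to a median of 27.5 TPM, of which *Flt1* averaged 18.9 TPM and *Cldn5* was listed at 0.

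**Figure D1:**
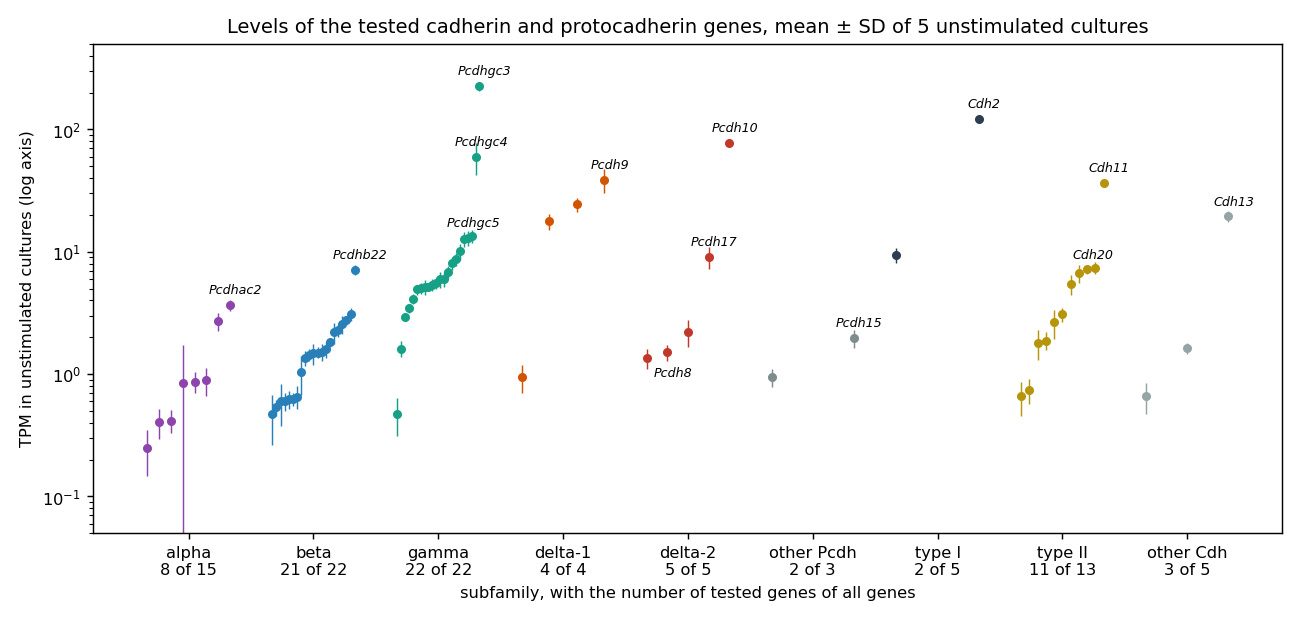
TPM (log axis) of the 78 tested genes in unstimulated cultures, grouped by subfamily and sorted by level, with points at the mean and bars at the SD of 5 cultures. *Pcdhgc3* stood highest at 226 TPM and *Cdh2* next at 122 TPM, and the lower bar of *Pcdha11* runs past the axis because its SD exceeded its mean.

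Within the clusters, levels were uneven along the gene order on chromosome 18 (plot of levels along the clusters). Among the beta genes, which share no constant exons, *Pcdhb22*, the last of the array, was highest at 7.12 ± 0.673 TPM. *Pcdhb20* followed at 3.11 ± 0.395 TPM, and *Pcdhb1*, the first, was lowest at 0.185 ± 0.0864 TPM. On the same strand *Pcdhb22* shares exon bases with *Pcdhb21*. On the opposite strand *Pcdhb22* and *Pcdhb20* share some with *Gm58529*. Over the 22 beta genes the order along the chromosome had a Spearman correlation of 0.59 with the level. Over the 12 alpha genes from *Pcdha1* to *Pcdha12* it was 0.60. Over the 19 A and B type gamma genes it was −0.27. These correlations describe genes of the same 5 libraries that lie beside each other and, in alpha and gamma, share exons, and they carry no test.

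The division of reads limits the values inside the alpha and gamma clusters. Of the bases of each alpha gene's most abundant transcript, 44.6% to 54.9% belonged to exons present in other genes of the cluster, and for gamma genes this was 42.7% to 93.1%. *Pcdhgc4* was the extreme: 71.8% ± 9.10 (SD, n = 5) of its reads in unstimulated cultures were given to a transcript of 2272 bases (2370 in GENCODE M39, of which 93.1% was shared). Its CPM ran from 68.8 to 126 in unstimulated cultures and from 39.2 to 129 at the high dose, the widest relative spread among the 4 most abundant members. For *Pcdhgc3* 95.7% ± 2.62 of the reads went to a single transcript of 4687 bases. As a share of the reads of its cluster, *Pcdhgc3* took 57.9% ± 1.19 in unstimulated cultures, 58.6% ± 0.441 at the low dose and 58.9% ± 1.84 at the high dose. In the alpha cluster the C-type gene *Pcdhac2* took 38.0% ± 2.49 and *Pcdha12* 25.9% ± 2.25 of the reads in unstimulated cultures.

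**Figure D2:**
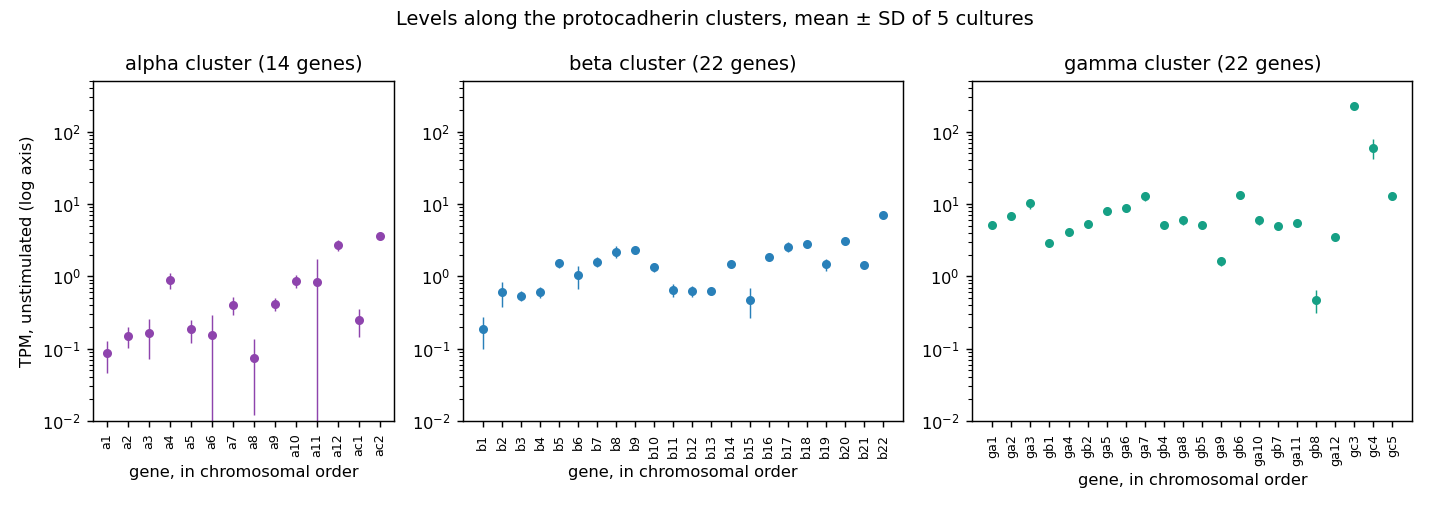
TPM (log axis) in unstimulated cultures of the alpha, beta and gamma protocadherin genes in their order along the chromosome, with the prefix Pcdh left off, points at the mean and bars at the SD of 5 cultures; *Pcdha4b*, listed at 0, is not drawn. In the gamma array *Pcdhgc3* and *Pcdhgc4* stood highest, at 226 and 60.05 TPM, while the third C-type gene, *Pcdhgc5*, at 12.98 TPM was level with *Pcdhgb6* at 13.37 TPM, and among beta genes *Pcdhb22* stood highest at 7.12 TPM.

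Few members changed with IL-12, and so did few of all genes tested. A gene was called when the false discovery rate (FDR) of edgeR's quasi-likelihood test, adjusted by Benjamini-Hochberg over all 15360 genes tested, was under 0.05. At the high dose 5 of 78 tested members (6.41%) were called against unstimulated cultures, where 9.77% of all genes were. *Cdh20*, *Cdh22* and *Pcdhgc5* rose, as did 5.83% of all genes, and *Pcdh17* and *Pcdh8* fell, as did 3.93% of all genes. At the low dose 4 of 78 (5.13%) were called, against 7.87% of all genes. *Cdh19*, *Cdh20*, *Cdh6* and *Pcdhgc5* rose, beside 4.16% of all genes that rose and 3.71% that fell. The count of 4 members was 2 without unstimulated replicate 3, 4 or 5 or without low-dose replicate 1, and 7 without unstimulated replicate 1 or high-dose replicate 2. Both comparisons use the same unstimulated cultures. With both doses averaged, 7 of 78 (8.97%) were called, against 11.9% of all genes. *Cdh19*, *Cdh20*, *Cdh22*, *Cdh6* and *Pcdhgc5* rose, beside 6.68% of all genes, and *Pcdh17* and *Pcdhgb7* fell, beside 5.21% of all genes. The count of 7 members was 4 without unstimulated replicate 4 or 5. In each of these comparisons the share called was somewhat lower among the members than among all genes, and this difference was not tested.

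Of the clustered protocadherins 1 of 51 tested (1.96%) was called at each dose, where 9.77% and 7.87% of all genes were at the high and the low dose. Of the other members 4 of 27 (14.8%) were called at the high dose and 3 of 27 (11.1%) at the low dose. The median log2 fold change of the clustered genes was −0.06 and 0.07, at the high and the low dose in this order. For the other members it was 0.00 and 0.08, and for all genes tested 0.00 at both doses. The medians rest in part on single cultures. That of the clustered genes at the high dose was −0.03 without unstimulated replicate 1 or 5. That of the others at the high dose was 0.07 without unstimulated replicate 1 and −0.01 without unstimulated replicate 3 or high-dose replicate 5, and at the low dose 0.04 to 0.05 without unstimulated replicate 3 or 4 or low-dose replicate 1. These counts describe the lists, and the difference between them was not tested. Among the 27 others, the calls lay in the type II cadherins (2 of 11 at the high dose and 3 of 11 at the low dose, all higher) and the delta-2 protocadherins (2 of 5 at the high dose, both lower). Among all genes 5.83% were called higher at the high dose and 4.16% at the low dose, and 3.93% were called lower at the high dose.

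**Figure D3:**
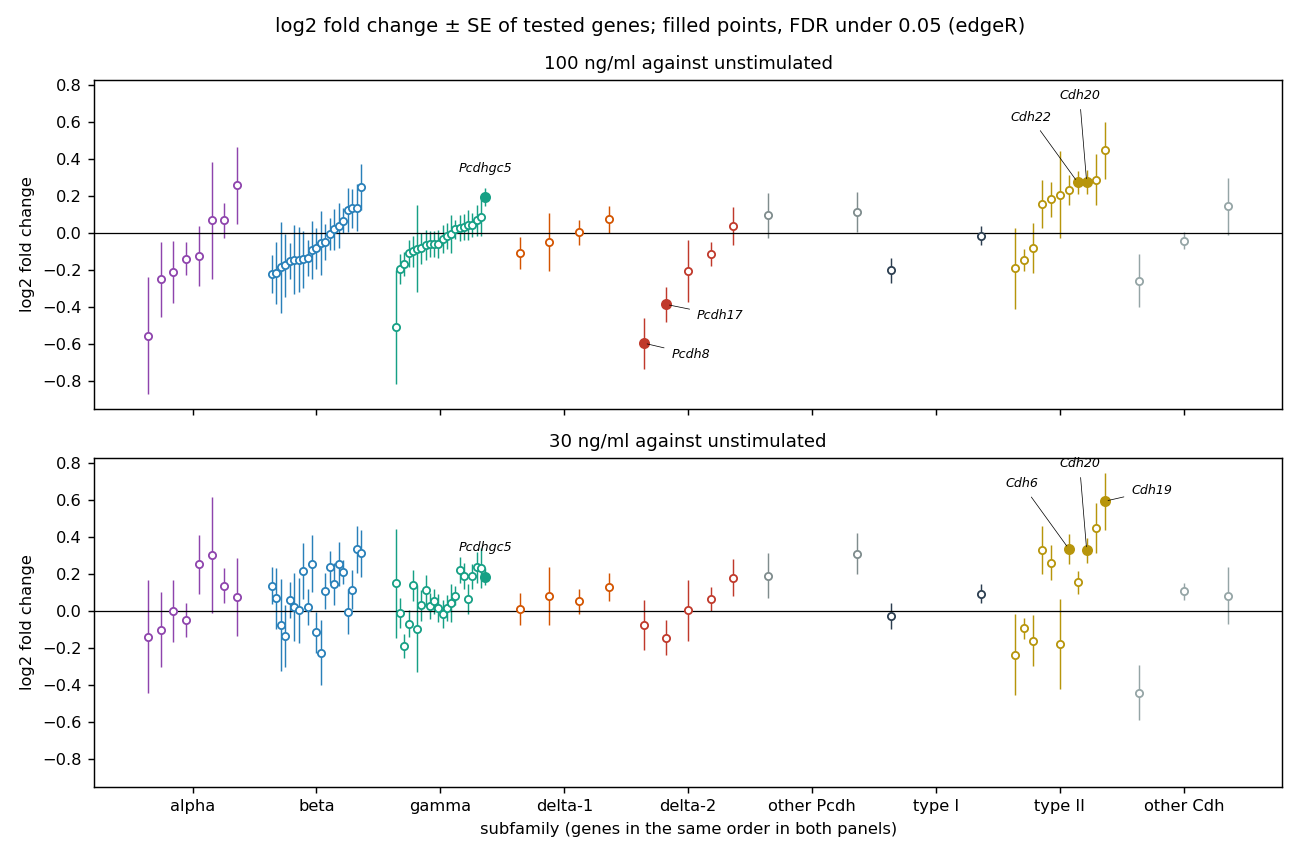
log2 fold change against unstimulated cultures with its standard error, for the 78 tested genes by subfamily, at the high dose (upper panel) and the low dose (lower panel), with filled points at an FDR under 0.05. Filled points were *Cdh20*, *Cdh22*, *Pcdhgc5*, *Pcdh17* and *Pcdh8* at the high dose and *Cdh19*, *Cdh20*, *Cdh6* and *Pcdhgc5* at the low dose.

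The regions upstream of called genes that stand alone in the genome were read from GRCm39, as the 200 bases before the 5′ end of each gene in GENCODE M39. They are shown for *Cdh20*, called at both doses, for *Pcdh17* and *Pcdh8*, which fell at the high dose, and for *Cdh22*, which rose at the high dose, with each CCAAT box (CCAAT, or ATTGG on the other strand) in capitals.
Cdh20, chr1:104696036-104696235, plus strand: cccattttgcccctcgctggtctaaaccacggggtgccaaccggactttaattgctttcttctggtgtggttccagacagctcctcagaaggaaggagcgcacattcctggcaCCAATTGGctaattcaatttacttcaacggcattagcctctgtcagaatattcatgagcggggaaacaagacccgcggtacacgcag
Cdh22, chr2:165076941-165077140, minus strand: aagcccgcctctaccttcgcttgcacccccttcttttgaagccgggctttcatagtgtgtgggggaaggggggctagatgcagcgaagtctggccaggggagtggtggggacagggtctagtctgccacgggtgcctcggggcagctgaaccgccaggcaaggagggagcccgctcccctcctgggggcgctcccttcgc
Pcdh17, chr14:84680765-84680964, plus strand: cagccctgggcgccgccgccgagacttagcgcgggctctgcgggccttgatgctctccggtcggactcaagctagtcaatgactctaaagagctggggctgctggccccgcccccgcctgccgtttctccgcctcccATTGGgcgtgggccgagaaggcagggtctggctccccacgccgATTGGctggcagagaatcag
Pcdh8, chr14:80008753-80008952, minus strand: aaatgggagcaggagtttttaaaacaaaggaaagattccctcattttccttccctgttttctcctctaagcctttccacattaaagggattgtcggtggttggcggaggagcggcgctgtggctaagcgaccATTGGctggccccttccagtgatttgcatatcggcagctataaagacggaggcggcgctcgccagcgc
The window of *Cdh20* held 2 CCAAT matches on opposite strands that share bases, that of *Pcdh17* held 2, that of *Pcdh8* held 1 and that of *Cdh22* none; the windows of *Cdh19* and *Cdh6* held none either. Over the windows of 13772 tested protein-coding genes 30.9% held the motif, and 9 of 25 members searched did. The GC box (GGGCGG, both strands) occurred in 37.4% of all windows and 9 of 25 members, among them *Pcdh17*. TATAAA on either strand occurred in 6.28% of all windows and in 1 member, *Pcdh8*. The palindrome TTCNNNGAA, to which STAT proteins are known to bind, occurred in 5.44% of all windows and in 0 of 25 members. The cAMP response element TGACGTCA occurred in 1.44% of all windows and likewise in 0 of 25 members. These counts describe letters within the windows of the genes searched. The 51 tested clustered protocadherins, among them the called *Pcdhgc5* and *Pcdhgb7*, were not searched, and neither were *Cdh2* and *Pcdh1*. The counts out of 25 members therefore do not cover these genes. The most abundant transcript of *Cdh22* starts 40 bases, and that of *Cdh6* 243 bases, inside the annotated 5′ end. The window of *Pcdh8* lies over an exon of the noncoding gene *4930452G13Rik* on the opposite strand.

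Among the type II cadherins, *Cdh20*, encoded on chromosome 1 (chr1:104696236-104923207, plus strand, GRCm39), rose at both doses. Its CPM were 17.4, 19.9, 16.2, 17.5 and 16.7 in unstimulated cultures, 25.6, 21.7, 20.8, 20.2 and 22.01 at the low dose and 21.8, 21.3, 22, 21.3 and 19.8 at the high dose. Every culture at the low dose lay above every unstimulated culture, whereas at the high dose the lowest culture was just under the highest unstimulated one. The log2 fold change was 0.33 ± 0.067 (SE, FDR = 0.00651) at the low dose and 0.28 ± 0.066 (FDR = 0.0151) at the high dose by edgeR. It was called at both doses under each of the 25 settings run, which covered other tools, scalings and filters and leaving out each culture. *Cdh22*, *Pcdh17* and *Pcdh8* were likewise called at the high dose under all 25. The highest FDR over these settings was 0.0311 for *Cdh22*, 0.0325 for *Pcdh8* and 0.0499 for *Pcdh17*, the last just under the threshold.

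*Cdh22* (chr2:164953045-165076940, minus strand), a type II cadherin known from brain, rose at the high dose. Its CPM were 13.6, 15.6, 13.8, 12.6 and 14.8 in unstimulated cultures, 15.98, 15.6, 16.6, 15.7 and 14.4 at the low dose and 18.6, 16.6, 17.4, 16.4 and 16.1 at the high dose. All cultures at the high dose were above all unstimulated ones, and those at the low dose overlapped with both groups. Its log2 fold change was 0.27 ± 0.062 (FDR = 0.0102) at the high dose and 0.16 ± 0.062 (FDR = 0.142) at the low dose, and the difference between doses was 0.12 ± 0.062 (FDR = 0.435, edgeR). Averaged over both doses it was 0.21 ± 0.054 (FDR = 0.0160), with an FDR of 0.0539 without unstimulated replicate 4.

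*Cdh19* (chr1:110815039-110905349, minus strand), which is known from glia of the peripheral nerve, showed the largest rise among the members called. Its CPM were 13.2, 12.9, 10.2, 8.93 and 10.1 in unstimulated cultures, 21.6, 15.9, 19.1, 12.3 and 15.01 at the low dose and 15.2, 20.5, 12.7, 13.2 and 14.5 at the high dose. The groups overlapped, since 1 culture at the low dose and 2 at the high dose lay within the unstimulated range. The log2 fold change was 0.60 ± 0.155 (FDR = 0.0244) at the low dose and 0.45 ± 0.155 (FDR = 0.0751) at the high dose by edgeR. The call at the low dose was lost without unstimulated replicate 3, 4 or 5 or without low-dose replicate 1 or 3, with FDR from 0.0562 to 0.0749. Averaged over both doses it was 0.52 ± 0.136 (FDR = 0.0189), and without unstimulated replicate 3, 4 or 5 the FDR was 0.0548 to 0.0586. At the high dose the FDR was 0.0357 with DESeq2.

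*Cdh6* (chr15:13028787-13174004, minus strand), known as K-cadherin, rose at the low dose. Its CPM were 18.4, 16.4, 14.1, 15.6 and 17.1 in unstimulated cultures, 22.6, 19.3, 19.5, 21.8 and 20.1 at the low dose and 17.8, 22.2, 21.03, 18.2 and 17.1 at the high dose. At the low dose all cultures were above all unstimulated ones, and at the high dose 3 of 5 lay within the unstimulated range. By edgeR it differed from unstimulated cultures by 0.34 ± 0.081 on the log2 scale at the low dose (FDR = 0.0169) and by 0.24 ± 0.082 at the high dose (FDR = 0.0755). Without unstimulated replicate 3 or low-dose replicate 1 the FDR at the low dose was 0.0516 and 0.0525. Averaged over both doses it was called with an FDR of 0.0145, which became 0.0518 without unstimulated replicate 3. Of its 10193 exon bases, 259 are also exon bases of *Gm62129* on the opposite strand.

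The other type II cadherins gave values that did not pass the test. *Cdh8* had log2 fold changes of 0.29 at the high dose and 0.45 at the low dose, with edgeR FDR of 0.196 and 0.0520, and *Cdh11* had −0.15 and −0.09 with FDR of 0.117 and 0.362. Over the 11 type II genes tested the median log2 fold change was 0.21 at the high dose and 0.26 at the low dose, with 8 and 7 of 11 above 0. Without unstimulated replicate 4 the former was 0.12, and without low-dose replicate 1 the latter was 0.17. Cell type markers also differed between the groups. The 10 astrocyte markers summed to 3838 to 4297 TPM in unstimulated cultures, 4550 to 5307 TPM at the low dose and 4261 to 4716 TPM at the high dose. Of these, *Gfap* alone averaged 2366, 2804 and 2720 TPM in the same order. Others of the list went lower, with *Gja1* at 149, 146 and 130 TPM and *S100b* at 278, 273 and 259 TPM. The 12 microglia markers summed to 6905 to 9716, 5491 to 6881 and 6624 to 8681 TPM in the same order. The part of the cell mixture in the values of these cadherins was not tested. *Cdh20*, *Cdh7* and *Cdh19* lie on the same chromosome, *Cdh7* 747 kb from *Cdh19*. *Cdh7*, at 0.657 ± 0.202 TPM in unstimulated cultures, had log2 fold changes of −0.19 and −0.24 with edgeR FDR of 0.627 at the high dose and 0.577 at the low dose.

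**Figure D4:**
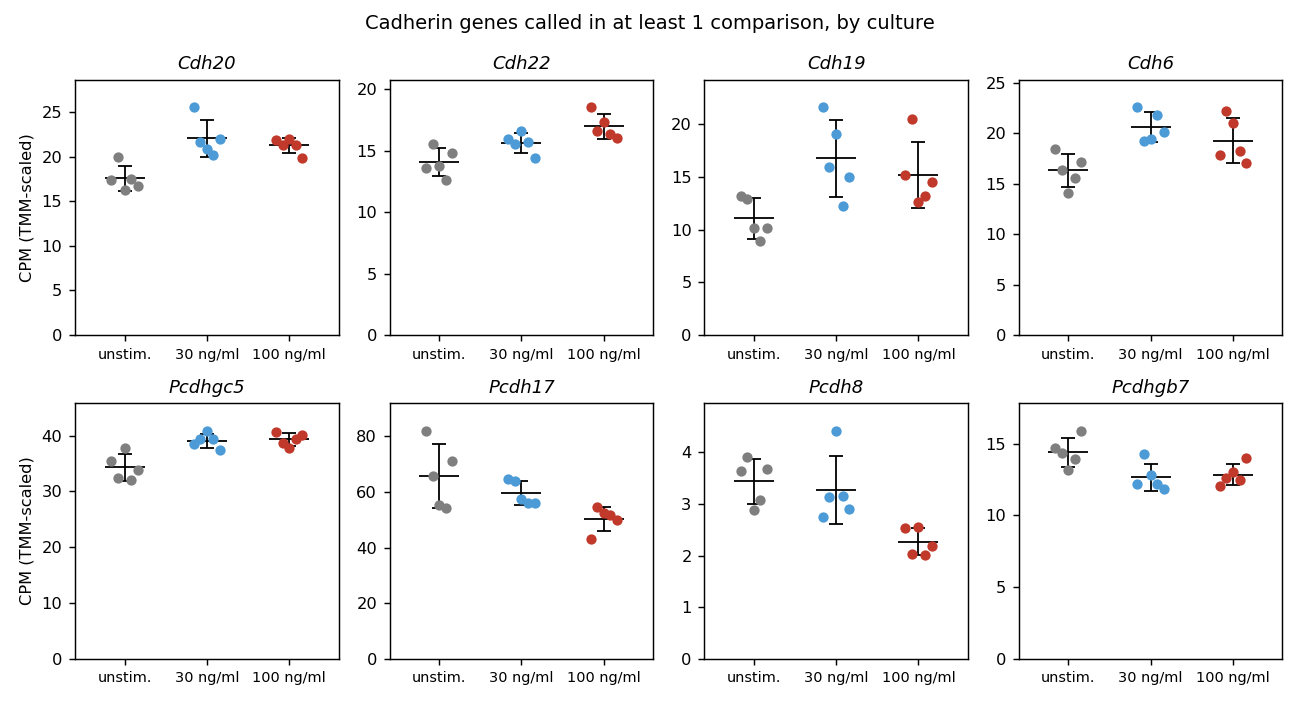
CPM, scaled by TMM, of the 8 genes called in at least 1 comparison, with 1 point per culture and the mean and SD of each group of 5 cultures in black. All cultures at the high dose lay above the unstimulated ones for *Cdh22* and below them for *Pcdh8*, and all cultures at the low dose lay above for *Cdh20* and *Cdh6*.

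Of the 5 delta-2 protocadherins, *Pcdh17* and *Pcdh8* fell at the high dose. *Pcdh17* (chr14:84680965-84776442, plus strand) is known for recruiting the WAVE complex to axonal contacts. Its CPM were 81.9, 65.8, 55.4, 54.4 and 71.2 in unstimulated cultures, 64.7, 63.7, 57.5, 55.9 and 56.1 at the low dose and 43.2, 54.6, 52.4, 51.6 and 50.04 at the high dose. Unstimulated cultures spread widely, and the highest culture at the high dose was just above the lowest unstimulated one. As log2 fold changes these were −0.39 ± 0.096 (FDR = 0.0167) at the high dose, −0.14 ± 0.095 (FDR = 0.404) at the low dose and −0.24 ± 0.096 (FDR = 0.295) between the doses, by edgeR. Averaged over both doses, its FDR of 0.0423 rose above the threshold in 13 of 24 settings, among them those without unstimulated replicate 1, 2 or 5, low-dose replicate 3, 4 or 5, or high-dose replicate 1, 3, 4 or 5. The highest, 0.162, came without unstimulated replicate 1, the culture with its highest level. Of its 13113 exon bases, 431 are shared with *Gm32498* on the opposite strand.

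*Pcdh8* (chr14:80004215-80008752, minus strand), also known as arcadlin, is induced by neuronal activity and takes part in removing N-cadherin from synapses. Its CPM were 3.63, 3.91, 2.88, 3.08 and 3.67 in unstimulated cultures, 2.74, 3.13, 4.42, 3.16 and 2.9 at the low dose and 2.54, 2.03, 2.56, 2.02 and 2.19 at the high dose. The 5 cultures at the high dose lay below all others, and those at the low dose overlapped with the unstimulated ones. As log2 fold changes these were −0.60 ± 0.138 (FDR = 0.0115) at the high dose and −0.08 ± 0.134 (FDR = 0.794) at the low dose by edgeR, from 52 to 139 reads per culture. Between the doses it was −0.52 ± 0.139, with an FDR of 0.120 by edgeR's quasi-likelihood test, 0.0458 by DESeq2 and 0.0370 by edgeR's likelihood-ratio test. Averaged over both doses it was −0.34 ± 0.117 (FDR = 0.0684, edgeR), and the FDR was 0.0173 without low-dose replicate 3, its highest culture. Of its 4538 exon bases, 2108 are also exon bases of *4930452G13Rik* on the opposite strand. That gene held 12 to 31 reads per culture, and its CPM averaged 0.674 ± 0.202 in unstimulated cultures and 0.777 ± 0.0726 at the high dose. The kit marks strand, but whether the estimates used it is not given in the sources used here.

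The other delta-2 genes were not called. *Pcdh10*, which binds the WAVE complex as well, had CPM of 187 to 222 in unstimulated cultures, 200 to 228 at the low dose and 165 to 207 at the high dose, and a log2 fold change of −0.11 ± 0.066 (FDR = 0.294) at the high dose. *Pcdh18* had 0.04 and *Pcdh19*, a gene of the X chromosome, −0.21, with FDR of 0.854 and 0.472 (edgeR). *Pcdh8* and *Pcdh17* lie 4672 kb apart on chromosome 14. Beside these values, the oligodendrocyte lineage markers summed to 6591 to 9740 TPM in unstimulated cultures and 5914 to 7139 TPM at the high dose, and the cerebellar neuron markers to 286 to 354 and 297 to 339 TPM. Of the neuron list, *Zic1*, *Zic2*, *Pax6*, *Car8* and *Pvalb* averaged higher at the high dose than in unstimulated cultures. All other genes of the list averaged lower. *Snap25* averaged 23.2 TPM in unstimulated cultures, 14.98 TPM at the low dose and 16.7 TPM at the high dose. In the same order *Calb1* averaged 17.04, 12.28 and 11.5 TPM, *Zic1* 72.4, 80.06 and 76.3 TPM and *Pax6* 34.2, 41.64 and 38.1 TPM. The part of the cell mixture in the fall of *Pcdh17* and *Pcdh8* was not tested.

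Among the clustered protocadherins, *Pcdhgc5*, the last C-type gene of the gamma cluster, was called at each dose. Its CPM were 35.5, 32.3, 37.9, 32.02 and 33.9 in unstimulated cultures, 38.5, 39.3, 40.9, 39.4 and 37.5 at the low dose and 40.6, 38.6, 37.7, 39.5 and 40.1 at the high dose. Unstimulated replicate 3 reached into both stimulated groups, and the other unstimulated cultures lay below all stimulated ones. In edgeR its log2 fold change was 0.20 ± 0.047 (FDR = 0.0153) at the high dose and 0.19 ± 0.048 (FDR = 0.0218) at the low dose. With counts rebuilt from TPM the FDR at the high dose was 0.137. Its TPM averaged 12.98 ± 1.79 in unstimulated cultures, 17.8 ± 0.903 at the low dose and 15.1 ± 1.67 at the high dose. A transcript of 593 bases, which weighs more in TPM, held 0.519% ± 0.484 of its reads in unstimulated cultures, 2.25% ± 0.518 at the low dose and 0.681% ± 0.683 at the high dose. The call of *Pcdhgc5* at the low dose was lost without unstimulated replicate 4 (FDR = 0.0643, edgeR). It was also lost without unstimulated replicate 5 (FDR = 0.0521) and without low-dose replicate 3 (FDR = 0.0538). As a share of the reads of the gamma cluster, *Pcdhgc5* held 3.08% ± 0.200 in unstimulated cultures, 3.35% ± 0.112 at the low dose and 3.54% ± 0.238 at the high dose. The gamma cluster counted as 1 gene gave log2 values of 0.00 ± 0.047 at the high dose and 0.07 ± 0.047 at the low dose. Since the constant exons are common to all gamma genes, the value of *Pcdhgc5* rests on how the authors' program divided their reads.

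*Pcdhgb7*, a B-type gamma gene, was called in the averaged comparison only, with a log2 fold change of −0.18 ± 0.056 (FDR = 0.0471, edgeR). Its CPM were 14.7, 14.4, 13.2, 13.9 and 15.9 in unstimulated cultures, 12.2, 14.2, 12.8, 12.2 and 11.9 at the low dose and 12.1, 12.6, 13.1, 12.5 and 13.99 at the high dose. The groups overlapped by 1 culture at each dose. This call was lost in 16 of 23 settings, among them those without unstimulated replicate 1, 2, 4 or 5, low-dose replicate 1, 3, 4 or 5, or high-dose replicate 1, 3 or 4, with FDR up to 0.151. At the low dose alone it was called without low-dose replicate 2 (FDR = 0.0390, edgeR). On the same strand 26 genes share exon bases with it, and on the opposite strand *Gm26672* shares 771 bases and held 3 to 20 reads per culture.

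The alpha and beta genes held 0 calls in each comparison by edgeR's quasi-likelihood test on all cultures. Other settings called no alpha gene, but did call beta genes, among them *Pcdhb18* between the doses in 3 of 25. Of 8 alpha genes tested, 0 had an unadjusted p under 0.05 at either dose. Of 21 beta genes tested this was 1 at the high dose and 4 at the low dose, and DESeq2 called *Pcdhb22* at the low dose. *Pcdhb22* had CPM of 21.2, 22.9, 18.8, 19.6 and 22.4 in unstimulated cultures and 25.4, 25.96, 21.3, 23.3 and 25.4 at the low dose, and a log2 fold change of 0.21 with an FDR of 0.0585 by edgeR. The summed TPM of the beta genes was 36.1 ± 3.03 in unstimulated cultures, 40.3 ± 3.68 at the low dose and 35.2 ± 2.04 at the high dose. That of the gamma genes was 414 ± 20.1, 444 ± 16.5 and 412 ± 29.6, and that of the alpha genes 10.9 ± 1.99, 11.5 ± 1.13 and 10.2 ± 1.10. No test was run on these sums. The abundant *Pcdhgc3* stood at 226 ± 17.6, 244 ± 8.08 and 228 ± 16.01 TPM, with log2 fold changes of 0.02 ± 0.052 at the high dose and 0.08 ± 0.052 at the low dose (FDR = 0.845 and 0.366, edgeR).

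The most abundant cadherins outside the clusters also stayed without a call. *Cdh2* had CPM of 310.0, 328, 286, 292 and 315 in unstimulated cultures, 344, 312, 309.6, 335 and 334 at the low dose, and 286, 298, 337, 296 and 299 at the high dose, and the 3 groups overlapped. The log2 fold change was −0.01 ± 0.051 (FDR = 0.898) at the high dose and 0.10 ± 0.051 (FDR = 0.287) at the low dose by edgeR. *Cdh4* had −0.20 at the high dose (FDR = 0.0720, edgeR), and it was called by DESeq2 and without unstimulated replicate 4. The delta-1 genes *Pcdh1*, *Pcdh7*, *Pcdh9* and *Pcdh11x*, whose proteins bind a phosphatase through a conserved motif, had log2 fold changes from −0.11 to 0.07 at the high dose and from 0.01 to 0.13 at the low dose. *Cdh13* had −0.04 and 0.11, *Cdh26* −0.26 and −0.44, and *Cdh23*, a component of hair cell tip links, 0.15 and 0.08, at the high and the low dose, with edgeR FDR from 0.0760 to 0.808. *Pcdh15*, its partner in the tip link and a marker of oligodendrocyte precursors, had 0.12 and 0.31 with FDR of 0.552 and 0.0908, and *Pcdh20* had 0.10 and 0.19 with FDR of 0.666 and 0.375.

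Between the doses, 0 of 78 members passed the FDR threshold by edgeR's quasi-likelihood test, against 0.579% of all genes, of which 0.501% were higher and 0.0781% lower at the high dose. DESeq2 and edgeR's likelihood-ratio test each called 2, *Pcdh8* and *Pcdhb18*, both lower at the high dose. An unadjusted p under 0.05 was found for 20 of 78 members, all of them lower at the high than at the low dose. Among all genes tested, 5.69% had such a p and were lower. The log2 difference was below 0 for 64 of 78 members, with a median of −0.13, against 51.5% of all genes below 0 and a median of 0.00. This held for 43 of 51 clustered and 21 of 27 other members. Over the 25 settings 60 to 68 members lay below 0 and the median ran from −0.15 to −0.09. *Pcdhb18* gave −0.36 (FDR = 0.145, edgeR), with CPM of 11.4, 10.2, 11.3, 8.28 and 9.77 at the low dose and 6.58, 9.86, 7.26, 7.8 and 8.22 at the high dose, where 1 culture, high-dose replicate 2, reached into the range at the low dose; without it *Pcdhb18* was called. Against unstimulated cultures, 22 of 78 members lay below 0 at the low dose and 46 of 78 at the high dose. Among all genes these shares were 49.9% and 51.4%. Over the 25 settings the member counts ran from 18 to 31 and from 40 to 51. By edgeR's quasi-likelihood test 21 of 78 members had an unadjusted p under 0.05 at the low dose, 19 of them higher and 2 lower. At the high dose 12 had, 5 of them higher and 7 lower. Among all genes 22.7% and 25.6% had such a p at the low and the high dose. Those that also were lower made up 10.8% and 11.9% of all genes. The members share libraries and, in part, exons, so they are not independent of each other.

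Proteins that work with cadherins were followed in 57 genes, of which 56 were tested. At each dose 5 of 56 (8.93%) were called, beside 9.77% of all genes at the high and 7.87% at the low dose. Of 10 kinases and actin regulators bound by protocadherins, 4 fell at the high dose and 2 at the low dose, where 3.93% and 3.71% of all genes fell. They were *Abi2* (log2 fold change −0.24, FDR = 0.0157), *Cyfip1* (−0.18, FDR = 0.0305) and *Abi1* (−0.17, FDR = 0.0407), subunits of the WAVE complex, and *Fyn* (−0.15, FDR = 0.0209), a SRC-family kinase, by edgeR. At the low dose *Cyfip1* (−0.25, FDR = 0.00665) and *Ptk2b* (−0.27, FDR = 0.00836), a kinase related to focal adhesion kinase, fell. The WAVE complex genes *Wasf1*, *Nckap1* and *Cyfip2* of the same list were not called by edgeR at either dose. Their log2 fold changes at the high dose were −0.21, −0.02 and −0.07 (FDR = 0.0522, 0.874 and 0.477). At the low dose they were 0.045, 0.13 and 0.034 (FDR = 0.741, 0.133 and 0.781). The call of *Abi2* was lost only with counts rebuilt from TPM (FDR = 0.219), and that of *Abi1* in 16 of 25 settings, among them 12 of the 15 that left out a culture. That of *Cyfip1* at the high dose was lost in 8 settings, among them those without unstimulated replicate 3, 4 or 5 or high-dose replicate 1 or 3, and that of *Fyn* in 6, among them those without unstimulated replicate 1 or 5 or high-dose replicate 1. Among 15 further genes tested, which were other cadherin superfamily genes and *Fjx1*, a Golgi kinase that acts on them, *Celsr2*, a cadherin of planar polarity, rose at the low dose (0.34, FDR = 0.00388) and at the high dose (0.22, FDR = 0.0375). The latter call was lost in 8 of 25 settings, among them those without unstimulated replicate 2, 3 or 4 or high-dose replicate 1, 3, 4 or 5. *Fat2*, known from granule cell axons, had CPM of 12.1 ± 3.70 in unstimulated cultures and 7.06 ± 1.41 at the low dose and fell (−0.78, FDR = 0.0427), as did *Fat3* (−0.40, FDR = 0.0465). The calls of *Fat2* and *Fat3* at the low dose were lost in 11 and 13 of 25 settings, among them 9 and 11 of the 15 that left out a culture. Of 10 catenins and junction adaptors, 7 proteases that cleave cadherins and 14 chromatin and cohesin regulators of the protocadherin clusters, 0 were called by edgeR at either dose. At the high dose 1, 1 and 3 of them, and at the low dose 2, 1 and 2, had an unadjusted p under 0.05. With both doses averaged, edgeR called 8 of the 56 genes (14.3%), against 11.9% of all genes. Of the 8, 2 rose and 6 fell, beside 6.68% and 5.21% of all genes. Among them were 5 of the 10 kinases and actin regulators, all lower. Of the 14 chromatin and cohesin regulators 1 was called, *Setdb1*, which rose (0.107, FDR = 0.0441).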

How the data were processed

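Bulk RNA-seq (stranded poly(A) libraries, single-end reads) of 15 cerebellar cultures was used. The methods name STAR 2.7.8a, FeatureCounts and GENCODE M26 on GRCm39, but the deposited values are estimated counts and TPM of 121798 transcripts per culture, which the authors made with a program not given in the sources used here. The other columns the authors deposited hold transcript length and effective length. The tests had been planned for counts per gene, so the estimated counts were summed by gene with GENCODE M39 (99.0% of transcripts matched; the others were left out) and rounded.

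The 15360 genes that reached 1 CPM in 2 or more cultures were scaled with TMM and tested with edgeR 4.0.16 (R 4.3.3, limma 3.58.1), by the quasi-likelihood test in 1 fit of the 3 groups, with Benjamini-Hochberg adjustment over all genes and a threshold of 0.05. CPM are TMM-scaled. The script was tested on simulated data. Alternatives were DESeq2 1.42.0, the likelihood-ratio test, other scalings and filters, counts from TPM, only the groups compared, a replicate block, each of 2 clusters as 1 gene, and leaving out each culture. Tables were made with Python 3.11.15, pandas 2.3.3 and scipy 1.17.1.

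Members and lists were chosen with earlier results of these data known. Genes named are called members, the 3 highest of each subfamily by TPM, called partner genes and ends of ranges. *Cdh1*, *Cdh15*, *Cdh5*, *Cdh7*, *Cdh8*, *Pcdh11x*, *Pcdh19*, *Pcdhb1*, *Pcdhb18*, *Pcdha11*, *Pcdhgb6*, *Fjx1*, *Flt1*, *Calb1*, *Pvalb*, *Car8*, *4930452G13Rik*, *Gm62129*, *Gm32498* and *Gm26672* were named after their values were seen. So were *Snap25*, *Zic1*, *Zic2*, *Pax6*, *Gfap*, *Gja1*, *S100b*, *Wasf1*, *Nckap1*, *Cyfip2*, *Pcdhb21*, *Gm58529* and *Setdb1*. Genes divided by shared exons are uncertain. Depth was 25746096 to 38435850 reads per culture, and the common biological coefficient of variation was 8%.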

Additional observations from a re-analysis of the deposited data

Results flagged for a closer look

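In groups of 5 cultures, a culture was noted when its gap to the nearest other was large against the range of its group. This was run on 114 groups and marks about 1 in 20 groups by chance; 5 were marked. For *Pcdhgc3*, unstimulated replicate 4 had 572 CPM, below the other 4 unstimulated cultures at 653 to 681 CPM. For *Pcdhb20*, unstimulated replicate 3 had 5.59 CPM and the others 6.85 to 7.29 CPM. For *Pcdh8*, replicate 3 at 30 ng/ml had 4.42 CPM and the others 2.74 to 3.16 CPM. For *Cdh11*, replicate 5 at 30 ng/ml had 129 CPM and the others 118 to 120 CPM. For *Cdh2*, replicate 3 at 100 ng/ml had 337 CPM and the others 286 to 299 CPM. The 5 marks fell on 5 different genes and 5 different cultures.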

How the results depend on the processing

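The count of members called at 30 ng/ml against unstimulated cultures was 4 by edgeR's quasi-likelihood test, 7 with DESeq2, 8 with the likelihood-ratio test and 7 with scaling by library size alone. Of all 15360 genes, the first 3 of these called 1209, 1668 and 1595 in the same comparison. Between the doses they called 89, 241 and 253 of all genes. Leaving out each culture gave 2 to 7, with 2 without unstimulated replicate 3, 4 or 5 or low-dose replicate 1, and 7 without unstimulated replicate 1 or high-dose replicate 2. At 100 against 30 ng/ml DESeq2 and the likelihood-ratio test each gave 2 where the quasi-likelihood test gave 0, and leaving out cultures gave 0 to 1, the 1 without high-dose replicate 2. At 100 ng/ml against unstimulated the count of 5 ran from 5 to 7 on leaving out cultures and was 4 with counts rebuilt from TPM and 4 with the alpha and gamma clusters as 1 gene each. In the averaged comparison the count of 7 ran from 4 to 9 on leaving out cultures, with 4 without unstimulated replicate 4 or 5. The cause was not tested. Over all settings 85 counts stayed within 1.5 times the first value and 14 moved beyond it. For named genes 936 values kept their side of the threshold, 108 lost the call and 17 gained it, and 0 changed sign. The 198 summed levels under alternatives stayed within 1 SD.

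A replicate block gave 6, 6, 0 and 5 members called at 100 ng/ml, at 30 ng/ml, between doses and in the averaged comparison. Same-numbered cultures share only a number: their deviations correlated between −0.218 and 0.295, with 2 of 15 pairs above 0.1, and 2 of 15 cultures correlated best with their own number. Depth limits *Pcdh8* most among the genes called, at 52 to 139 reads per culture.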
